A study of Saccharomyces cerevisiae with 12 samples.

Results

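The genes described here encode 51 factors that assemble the large (60S) ribosomal subunit in budding yeast, Saccharomyces cerevisiae, out of 5449 genes measured. They were listed by name, as proteins known to act in large-subunit assembly. The rule used no measured value, but the list was chosen with earlier results of these data known. All 51 were measured, each by 1 probe set of an Affymetrix yeast array. The 12 arrays fall into 4 groups of 3. The groups are wild type without drug, wild type grown with 30 µg/ml Congo Red for 2 h, a pat1 mutant without drug, and the pat1 mutant grown with 30 µg/ml Congo Red for 2 h. Both strains have the BY4741 genetic background. The labels call the mutant pat1 and do not say how the gene was altered or whether several clones were used. Each of the 3 biological samples of a strain gave 1 array without the drug and 1 with it, so the drug comparison can be paired within a sample. Congo Red binds cell wall polymers and stresses the wall, and Pat1 is a protein that promotes decapping and decay of mRNA.

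The large subunit is built around its ribosomal RNA, first in the nucleolus, then in the nucleoplasm, and last in the cytoplasm. Assembly factors bind in a known order, fold and cut the RNA, load ribosomal proteins and leave, and several use ATP or GTP to do so. In yeast, the genes for these factors are known to be expressed together and to fall when growth slows or cells are stressed.

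The strain labels were checked first. PAT1 had log2 signals of 10.50 to 10.93 on the wild-type arrays and 2.95 to 3.94 on the pat1 arrays. LEU2 and MET17, both deleted in BY4741, lay between 2.95 and 4.20 on all 12 arrays. URA3, also deleted in BY4741, lay between 2.94 and 3.27 on 10 arrays, but at 7.71 in wild type with Congo Red, sample 2, and at 6.76 in pat1 without drug, sample 1. HIS3 had signals of 10.53 to 11.18 throughout. A list of 22 general stress genes stood above its group's mean on the arrays of wild-type sample 2, by 0.736 without and 0.503 with Congo Red, and on those of pat1 sample 3, by 0.734 and 0.722. On the other 8 arrays that list lay between 0.238 and 0.425 below its group's mean. Results are therefore given with and without the 2 arrays with URA3 signal, and with and without wild-type sample 2 and pat1 sample 3. In bulk RNA, fewer cells carrying a transcript and less transcript per cell cannot be told apart. The p-values of the fit of group means rest on the spread of arrays within all 4 groups. That fit treats both arrays of a biological sample as independent, although their deviations correlated at 0.616 or more. Paired p-values rest on the spread of the drug response among the 3 biological samples of each strain. The number of samples limits the precision of both.

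In wild type, the mean signal of all 51 genes was lower with Congo Red than without it, where 57.1% of all 5449 genes had a lower mean. The median log2 difference of the 51 was -0.355, a level 0.782 times that without drug, and the median over all genes was -0.029. The differences ran from -0.60 for IPI3 to -0.08 for NUG1. In limma's test of the group means, with p-values adjusted over all 5449 genes, 3 of the 51 fell at an adjusted p under 0.05, against 0.239% of all genes. With arrays paired by biological sample, 30 of the 51 fell, against 5.89% of all genes. Of the 51, 19 had groups that did not overlap, all lower with the drug, against 10.2% of all genes. In all 3 biological samples 48 of the 51 had a lower signal with the drug, against 32.8% of all genes. The exceptions were LOC1 in sample 1, which differed by 0.02, and in sample 2 DBP7, by 0.01, and NUG1, by 0.22.

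**Figure D1:**
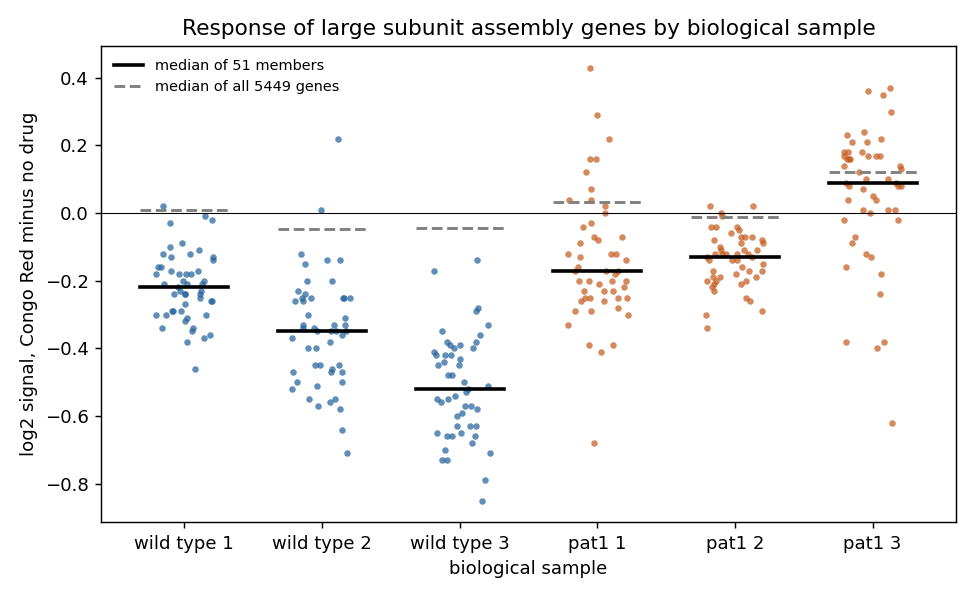
Log2 difference between the arrays with and without Congo Red in each biological sample, 1 point per gene, with the median of the 51 genes (solid) and of all 5449 genes (dashed). The median of the 51 was -0.222, -0.349 and -0.517 in wild-type samples 1 to 3, and -0.175, -0.128 and 0.093 in pat1 samples 1 to 3.

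The paired count varied with the wild-type samples fitted. It was 18 without sample 1, 6 without sample 2 and 0 without sample 3, with fewer samples in each of those fits. Without the samples that hold the URA3 arrays it was 19, and without wild-type sample 2 and pat1 sample 3 it was 17. The median difference was -0.262 without the 2 arrays with URA3 signal and -0.362 without wild-type sample 2 and pat1 sample 3. With each array centred on its median, all 51 means were still lower with the drug. The general stress genes had a median response of 0.184, -0.072 and 0.27 in wild-type samples 1, 2 and 3, where the 51 genes had medians of -0.222, -0.349 and -0.517. The summarised level of the stress list was 8.876 to 10.025 without drug and 9.166 to 9.933 with it in wild type, and its part in the result was not tested.

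The Npa1 complex acts on the earliest large-subunit particles and includes Urb1 (Npa1), Urb2, Rsa3 and the helicase Dbp6. Its 4 genes had a median response of -0.34 in wild type, and 3 fell in the paired fit. URB1 had log2 signals of 10.88, 10.93 and 10.88 in wild-type samples 1, 2 and 3 without drug and of 10.56, 10.47 and 10.03 with it. Every array with Congo Red lay below every array without it. The difference was -0.54 ± 0.17 (SE of the unpaired fit, n = 3 and 3), with a limma adjusted p of 0.173, and of 0.0111 when paired. Values after ± are SEs of the unpaired fit throughout, also beside paired p-values, which rest on the SE of the paired fit. URB2 differed by -0.35 ± 0.13 and DBP6 by -0.33 ± 0.16, with paired limma adjusted p of 0.0415 and 0.0191. RSA3, whose difference was -0.18 ± 0.11, did not pass in either fit.

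Nop7, Erb1 and Ytm1 form a complex needed to process the internal spacer between the 5.8S and 25S RNAs, and Cic1, Nop15 and Rlp7 bind near the same cleavage site. These 6 genes had a median of -0.35, and NOP7, YTM1, NOP15 and ERB1 fell in the paired fit. NOP7 had signals of 11.12, 11.04 and 11.23 in wild type without drug and of 10.83, 10.54 and 10.64 with Congo Red. The groups did not overlap, and each of the 3 samples was lower with the drug. Its difference was -0.46 ± 0.13, with a paired limma adjusted p of 0.0129. CIC1 differed by -0.32 and RLP7 by -0.30, and neither passed.

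The Nsa1 module is a set of proteins that joins the nucleolar particle, here represented by NSA1, RPF1 and MAK16. All 3 fell in the paired fit, by 0.49, 0.47 and 0.49 on the log2 scale, with paired limma adjusted p of 0.032, 0.0166 and 0.025. Mak21 (Noc1), Noc2 and Noc3 are large scaffold proteins of the large-subunit particle. NOC2 had signals of 10.69, 10.62 and 10.79 in wild type without drug and of 10.40, 10.07 and 10.13 with Congo Red. Again every array with the drug lay below every array without it. The difference was -0.50 ± 0.17, with a limma adjusted p that passed when paired (0.0117). MAK21 fell by 0.45 and NOC3 by 0.35, with paired limma adjusted p of 0.0177 and 0.039.

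DEAD-box helicases remodel RNA in the particle with ATP. Of the 8 such genes outside the Npa1 complex, DRS1, MAK5, DBP10 and HAS1 fell in the paired fit, by 0.47, 0.45, 0.40 and 0.37. DBP9, SPB4, DBP3 and DBP7 differed by -0.30, -0.25, -0.19 and -0.17 and did not pass. DBP3 had signals of 11.20, 10.63 and 11.18 without drug and of 11.10, 10.50 and 10.82 with it in wild type, groups that overlapped although each sample was lower with the drug.

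Among 3 RNA methyltransferases of the large subunit, BMT5 fell in both fits. Bmt5 methylates a uridine of the 25S RNA. BMT5 had signals of 9.25, 9.26 and 9.41 without drug and of 8.87, 8.54 and 8.75 with Congo Red in wild type. The groups were well apart, and the difference was -0.58 ± 0.11, a 1.50-fold lower level, with a limma adjusted p of 0.0132 and a paired one of 0.00457. The other 2, SPB1 and NOP2, differed by -0.30 and -0.24 and did not pass. Rpf2 and Rrs1 load the 5S RNA particle, and RPF2 fell by 0.41 in the paired fit, with a limma adjusted p of 0.037. RRS1 differed by -0.33 and did not pass.

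Of the GTPases that act in the nucleolus and nucleoplasm, NOG1 fell by 0.37 in the paired fit, with a limma adjusted p of 0.0413. NOG2 differed by -0.32 and did not pass. NUG1 had the smallest difference of the 51, -0.08 ± 0.20. Its signals were 11.64, 11.05 and 11.79 without drug and 11.47, 11.27 and 11.50 with it, and the groups overlapped, with sample 2 without drug the lowest of the 6 arrays and higher with the drug.

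The Rix1 complex (Rix1, Ipi1, Ipi3) and the very large ATPase Mdn1 (Rea1) remodel the particle in the nucleoplasm, where Mdn1 pulls on Rsa4. IPI3 had the largest difference of the 51 in wild type. Its signals were 9.55, 9.38 and 9.76 without drug and 9.19, 8.74 and 8.96 with Congo Red, and every sample was lower with the drug by at least 0.36. The groups did not overlap, and the difference was -0.60 ± 0.14, a 1.51-fold lower level, with a limma adjusted p of 0.0498 and a paired one of 0.005. RSA4 fell by 0.37 and MDN1 by 0.36 in the paired fit, with limma adjusted p of 0.0399 and 0.0442. RIX1 and IPI1 differed by -0.42 and -0.33 and did not pass.

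Rlp24, Tif6, Nsa2 and Arx1 are late or shuttling factors, and Tif6 keeps the 60S subunit from joining the 40S subunit until it is released in the cytoplasm. ARX1, NSA2 and RLP24 fell in the paired fit, by 0.47, 0.31 and 0.30. TIF6 differed by -0.17 ± 0.14 and did not pass. The remaining 10 genes encode other nucleolar factors, of which TMA16, SSF1, NOP4 and NOP12 fell in the paired fit. TMA16 had signals of 9.53, 9.59 and 9.39 in wild type without drug and of 9.07, 9.02 and 8.66 with it. These groups did not overlap either, and the difference was -0.59 ± 0.14, a 1.50-fold lower level, with a limma adjusted p of 0.0498 and a paired one of 0.00398. SSF1 had signals of 9.42, 9.32 and 9.51 without drug and of 9.15, 8.76 and 8.86 with it, a difference of -0.49 ± 0.14 with limma adjusted p of 0.0983 and, paired, 0.00997. SSF1 has a close paralog, SSF2, with a difference of -0.31, and whether its transcript also binds the SSF1 probes was not tested. The smallest differences of this group were those of NOP16, -0.19, and LOC1, -0.22, which did not pass.

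**Figure D2:**
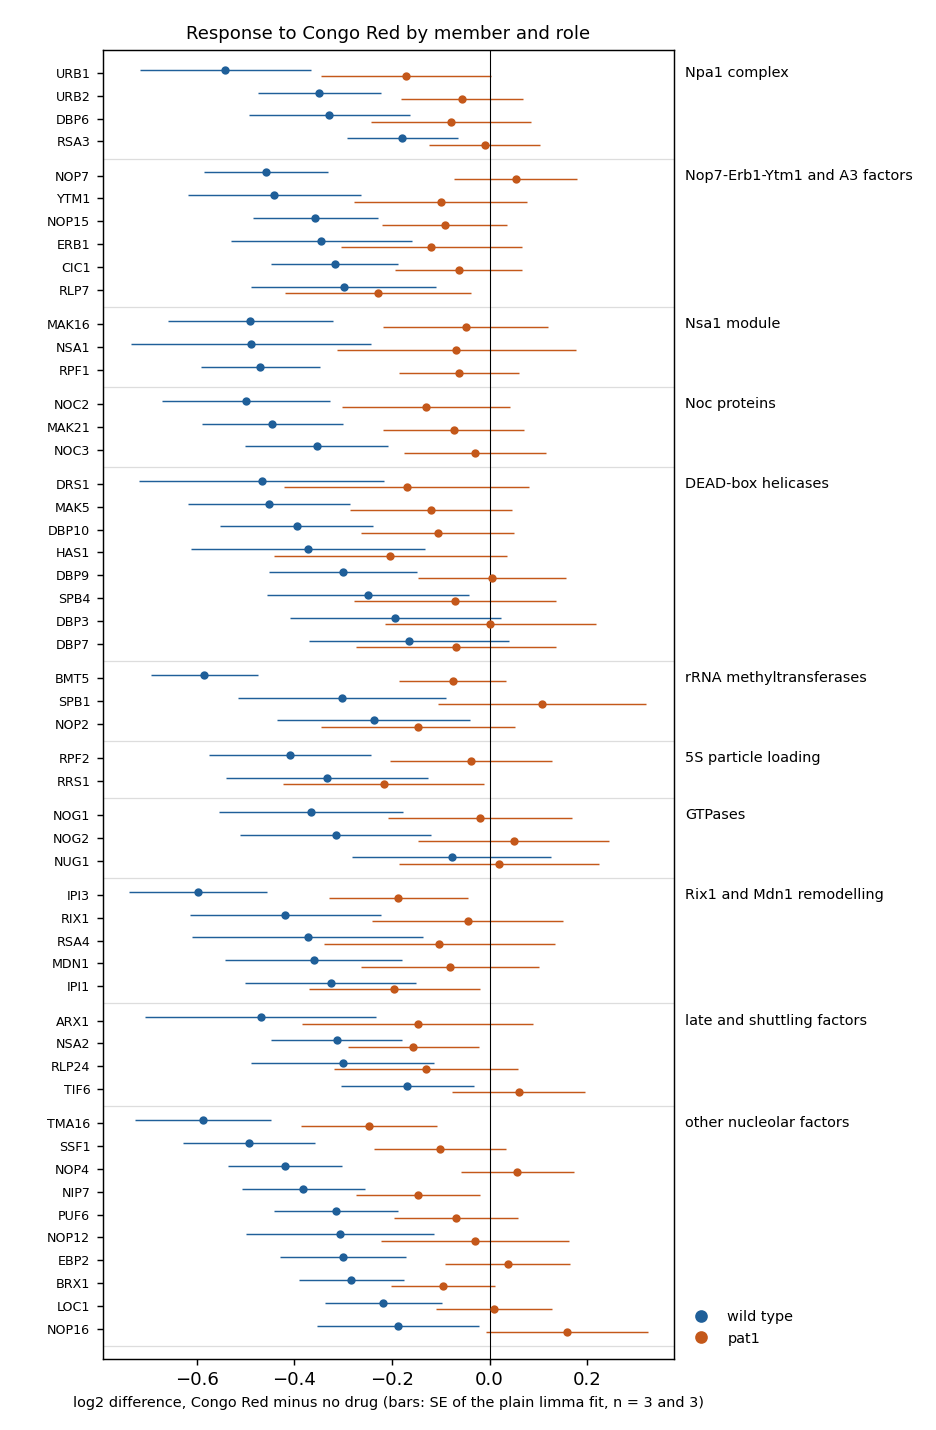
Log2 difference, Congo Red minus no drug, of each of the 51 genes in wild type (blue) and pat1 (orange), ordered by role, with standard errors of the unpaired limma fit (n = 3 and 3). All 51 blue points lie below 0 (-0.60 to -0.08), and the orange points lie on both sides of 0 (-0.25 to 0.16).

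The unpaired calls depended on single arrays. Of IPI3, TMA16 and BMT5, none passed without the wild-type array of sample 3 without drug, without that of sample 2 with the drug or without that of sample 3 with the drug. Just 1 passed without wild type sample 1 without drug, without any 1 pat1 array without drug, or without pat1 sample 1 or 2 with the drug. No call was made without the 2 URA3 arrays, or without wild-type sample 2 and pat1 sample 3.

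In the pat1 mutant, 40 of the 51 genes had a lower mean with Congo Red and 11 a higher one, with a median of -0.074, where the median of all genes was 0.041. None passed limma's test as lower, in the unpaired fit (0% of all genes) or in the paired fit (0.349% of all genes). In the unpaired fit 0 of the 51 had an unadjusted p under 0.05, against 305 of all 5449 genes. In the paired fit 1 did, against 957 of all 5449 genes. Treating the sample as a random block also gave 0 calls, where 10 of all 5449 genes passed as lower and 158 as higher. Lower signals in all 3 pat1 samples were seen for 10 of the 51 (19.6%), against 11% of all genes. None of the 51 had groups that did not overlap, where 71 of all 5449 genes had such groups with lower signals with the drug and 373 with higher ones. With arrays centred on their medians, 47 of the 51 had a lower mean.

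The 3 pat1 samples differed among themselves. In sample 1, 40 of the 51 genes had lower signals with the drug, in sample 2, 48, and in sample 3, 14. Of all genes, 45.2%, 54.5% and 29.7% had lower signals in these samples. The medians of the 51 were -0.175, -0.128 and 0.093, where those of all genes were 0.032, -0.011 and 0.12. Relative to each sample's median over all genes, 42, 47 and 28 of the 51 were lower, with medians of -0.207, -0.117 and -0.027. The general stress genes had a median response of -0.243, -0.242 and -0.302 in these samples, and their summarised level was 9.815 to 10.962 without and 9.539 to 10.686 with the drug. Their part in the result was not tested. Over arrays other than those of wild-type sample 2 and pat1 sample 3, the median of the 51 in pat1 was -0.157, and without the 2 URA3 arrays it was -0.08.

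The largest differences in pat1 were those of TMA16, RLP7 and RRS1. TMA16 had signals of 10.18, 10.12 and 10.01 without drug and of 9.93, 10.04 and 9.61 with it. The groups overlapped, although each sample was lower with the drug, and the difference was -0.25 ± 0.14. RLP7 had signals of 11.42, 11.67 and 11.53 without drug and of 11.42, 11.60 and 10.90 with it, so its difference of -0.23 came mainly from sample 3. RRS1 had 10.51, 10.28 and 9.90 without drug and 9.83, 10.13 and 10.07 with it, where sample 1 was lower by 0.68 and sample 3 higher by 0.17. The smallest difference was that of DBP3, 0.00, from signals of 10.86, 11.24 and 10.54 without drug and 10.69, 11.06 and 10.90 with it.

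Whether the strains differed in their response was tested as the response of pat1 minus that of wild type. All 51 differences were positive, that is, less lowering or more raising in pat1, where 63.2% of all genes had a positive difference. The median of the 51 was 0.292 and that of all genes 0.058. No gene of the 51 passed limma's test, in the unpaired fit, where 0% of all genes passed as higher, or in the paired fit, where 0% of all genes did too. An unadjusted p under 0.05 was reached by 22 of the 51 in the paired fit, against 12.1% of all genes. In the unpaired fit it was reached by 4 of the 51, against 130 of all 5449 genes. With arrays centred on their medians all 51 stayed positive, with a median of 0.229, while 48.6% of all genes were positive. The median was 0.179 without the 2 URA3 arrays and 0.22 without both arrays of wild-type sample 2 and of pat1 sample 3. The 22 general stress genes all had a negative difference in response, with a median of -0.365, and their part in the result was not tested.

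The largest differences in response were those of NOP7, 0.51 ± 0.18, BMT5, 0.51 ± 0.16, and NOP4, 0.48 ± 0.16, with paired limma adjusted p of 0.243, 0.241 and 0.28. NOP7 had signals of 11.33, 11.50 and 11.06 in pat1 without drug and of 11.41, 11.37 and 11.27 with it. Sample 1 and sample 3 were thus higher with the drug in pat1, where all 3 wild-type samples were lower. BMT5 had 9.42, 9.44 and 9.36 in pat1 without drug and 9.19, 9.40 and 9.40 with it, and lay lower with the drug in samples 1 and 2. NOP4, an RNA-binding nucleolar protein gene, had signals of 11.37, 11.28 and 11.30 in wild type without drug, 11.07, 10.88 and 10.75 in wild type with it, 11.24, 11.51 and 11.21 in pat1 without it and 11.28, 11.40 and 11.45 in pat1 with it. The wild-type groups did not overlap and the pat1 groups did. The smallest difference in response was that of RLP7, 0.07. By role, the median difference was highest for the Nsa1 module (0.42) and the methyltransferases (0.41) and lowest for the late factors (0.20).

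**Figure D3:**
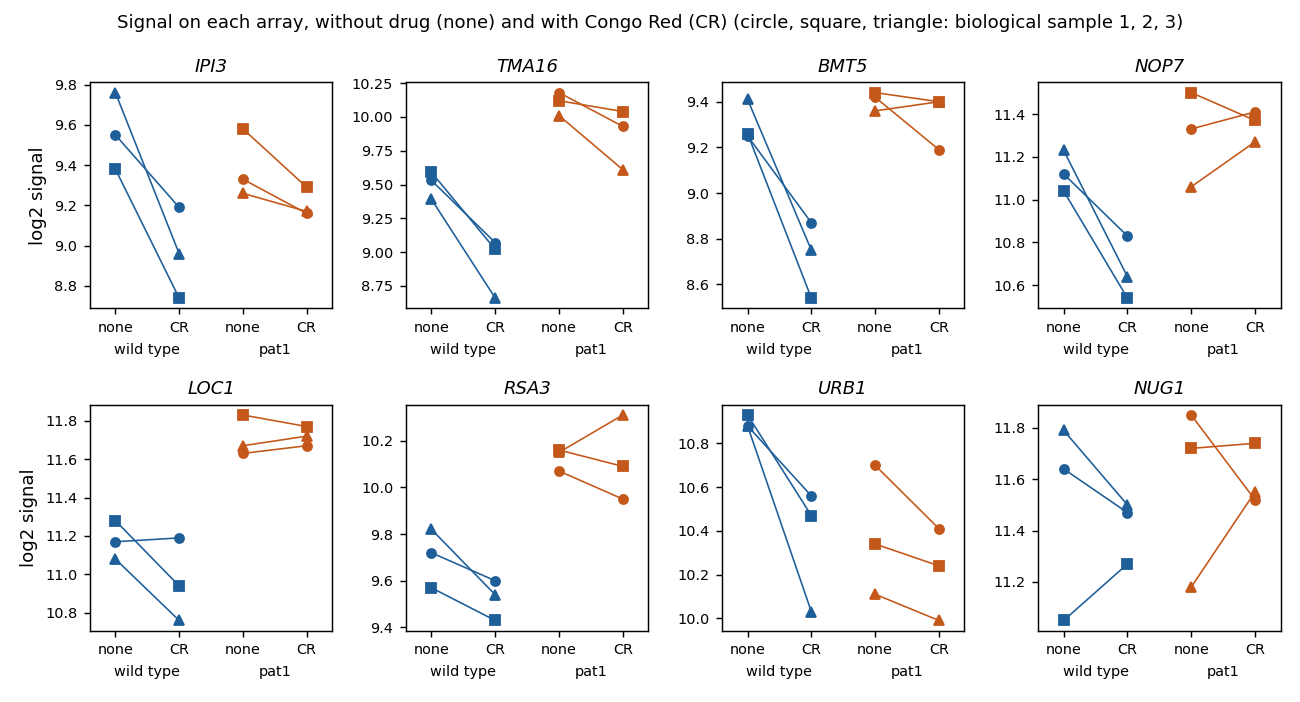
Log2 signal (own scale in each panel) of 8 of the genes on each of the 12 arrays, in wild type (blue) and pat1 (orange) without drug and with Congo Red (CR), with lines joining the arrays of a biological sample. IPI3, TMA16, BMT5 and NOP7 were lower with the drug in every wild-type sample, and the pat1 signals of TMA16, LOC1 and RSA3 lay above all wild-type signals.

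Without drug, the strains differed in both directions. Of the 51 genes, 31 had a lower and 20 a higher mean in pat1, 29 lower when arrays were centred, with a median of -0.030, where that of all genes was -0.014. TMA16, LOC1 and RSA3 were higher in pat1 at a limma adjusted p under 0.05, that is 3 of 51 against 3.51% of all genes, and 0 were lower, against 2.94%. With these 3 included, 6 of the 51 reached an unadjusted p under 0.05, against 1326 of all 5449 genes. Groups that did not overlap were seen for 4 of the 51 with pat1 higher and for 2 with pat1 lower. Of all 5449 genes, 654 and 813 had such groups, so non-overlap was no more frequent among the 51. The median was 0.005 without the 2 URA3 arrays and -0.068 without wild-type sample 2 and pat1 sample 3, and none of the 3 calls held in either case. The general stress genes were higher in pat1 in 20 of 22 cases, with a median difference of 0.959, of which CTT1 (1.92) passed. Their part in the result was not tested.

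TMA16 had signals of 9.39 to 9.59 in wild type and of 10.01 to 10.18 in pat1 without drug. The lowest pat1 array lay above the highest wild-type array, and the difference was 0.60 ± 0.14, a 1.52-fold higher level, with a limma adjusted p of 0.0317. LOC1, whose protein acts in large-subunit assembly and in placing an mRNA in the daughter cell, had signals of 11.17, 11.28 and 11.08 in wild type and of 11.63, 11.83 and 11.67 in pat1. These did not overlap, and the difference was 0.53 ± 0.12 with a limma adjusted p of 0.0271. RSA3 had signals of 9.72, 9.57 and 9.82 in wild type and of 10.07, 10.16 and 10.15 in pat1, a difference of 0.43 ± 0.11 with a limma adjusted p of 0.0497. All pat1 arrays without drug lay above all wild-type arrays without drug for RSA3 as well.

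URB1 and URB2 had the 2 largest lower means in pat1 without drug. URB1 had signals of 10.70, 10.34 and 10.11 in pat1, all below the wild-type range of 10.88 to 10.93, and its difference of -0.51 ± 0.17 did not pass (limma adjusted p 0.102). URB2 had 10.21, 9.92 and 10.25 in wild type and 9.75, 9.78 and 9.47 in pat1, without overlap, and its difference of -0.46 ± 0.13 did not pass either (limma adjusted p 0.0524). The genes of the Npa1 complex thus lay on both sides of 0, since RSA3 was higher in pat1. All 5 genes of the Rix1 and Mdn1 group had lower means in pat1, with a median of -0.17, and none passed. NOP16 had the smallest difference, from signals of 10.82, 10.83 and 10.87 in wild type and of 10.43, 11.12 and 10.96 in pat1, where pat1 sample 1 was the lowest array and sample 2 the highest.

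With Congo Red, 47 of the 51 genes had a higher mean in pat1 than in wild type, and URB1, URB2, DBP7 and HAS1 a lower one. The median difference was 0.251, where that of all genes was 0.044, and 43 were higher when arrays were centred on their medians. Of the 51, 8 were higher at a limma adjusted p under 0.05, against 4.26% of all genes, and 0 were lower, against 2.18%. Groups that did not overlap, with pat1 higher, were seen for 21 of the 51, against 18.2% of all genes. URB2 had such groups with pat1 lower, as did 629 of all 5449 genes. The wild-type arrays with Congo Red enter this comparison, the wild-type drug response and the difference in response, so these 3 share arrays. The count of 8 was 3 without the URA3 arrays, where the median was 0.136, and 2 without both arrays of wild-type sample 2 and of pat1 sample 3, where the median was 0.161. The general stress genes were higher in pat1 in 16 of 22 cases with the drug, with a median difference of 0.439 and no call, and their part in the result was not tested. It was 4 without wild-type sample 2 or 3 with the drug or pat1 sample 3 with the drug, and 5 without wild-type sample 1 without drug or pat1 sample 2 with the drug.

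TMA16 had the largest difference, 0.94 ± 0.14, a 1.92-fold higher level, with a limma adjusted p of 0.00425. Its signals with the drug were 8.66 to 9.07 in wild type and 9.61 to 10.04 in pat1. TMA16 passed in 23 of the 23 settings tried. LOC1, with 11.19, 10.94 and 10.76 in wild type and 11.67, 11.77 and 11.72 in pat1, differed by 0.76 ± 0.12 (limma adjusted p 0.0059), and the pat1 arrays lay close together and above all wild-type arrays.

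SPB1, for a methyltransferase of the 25S RNA, had 10.63, 10.11 and 10.50 in wild type with the drug and 10.99, 11.42 and 11.24 in pat1, a difference of 0.80 ± 0.21 with a limma adjusted p of 0.0466. The groups did not overlap, and the wild-type array of sample 2 was the lowest. SPB1 passed in 7 of 23 settings. NOP7 was higher in pat1 by 0.68 ± 0.13 (limma adjusted p 0.0122) and BMT5 by 0.61 ± 0.11 (limma adjusted p 0.0109), with the wild-type values given above below all pat1 values. Both had a strain difference without drug that did not pass, 0.17 for NOP7 and 0.10 for BMT5.

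RSA3 had signals of 9.60, 9.43 and 9.54 in wild type and of 9.95, 10.09 and 10.31 in pat1 with the drug, a difference of 0.59 ± 0.11 with a limma adjusted p of 0.0135. TIF6 had 11.81, 11.54 and 12.01 in wild type and 12.26, 12.37 and 12.39 in pat1 with the drug, a difference of 0.55 ± 0.14 (limma adjusted p 0.0351). NOP4 was higher by 0.48 ± 0.12 (limma adjusted p 0.035). For each of these 3 genes every pat1 array with the drug lay above every wild-type array with it. MDN1 had the smallest difference, 0.00, with overlapping signals of 11.48, 11.23 and 11.21 in wild type and 11.46, 11.36 and 11.11 in pat1. By role, the median strain difference with the drug was 0.61 for the methyltransferases, 0.38 for NOP7, ERB1, YTM1, CIC1, NOP15 and RLP7, 0.37 for the Nsa1 module and 0.12 for the Rix1 and Mdn1 group.

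**Figure D4:**
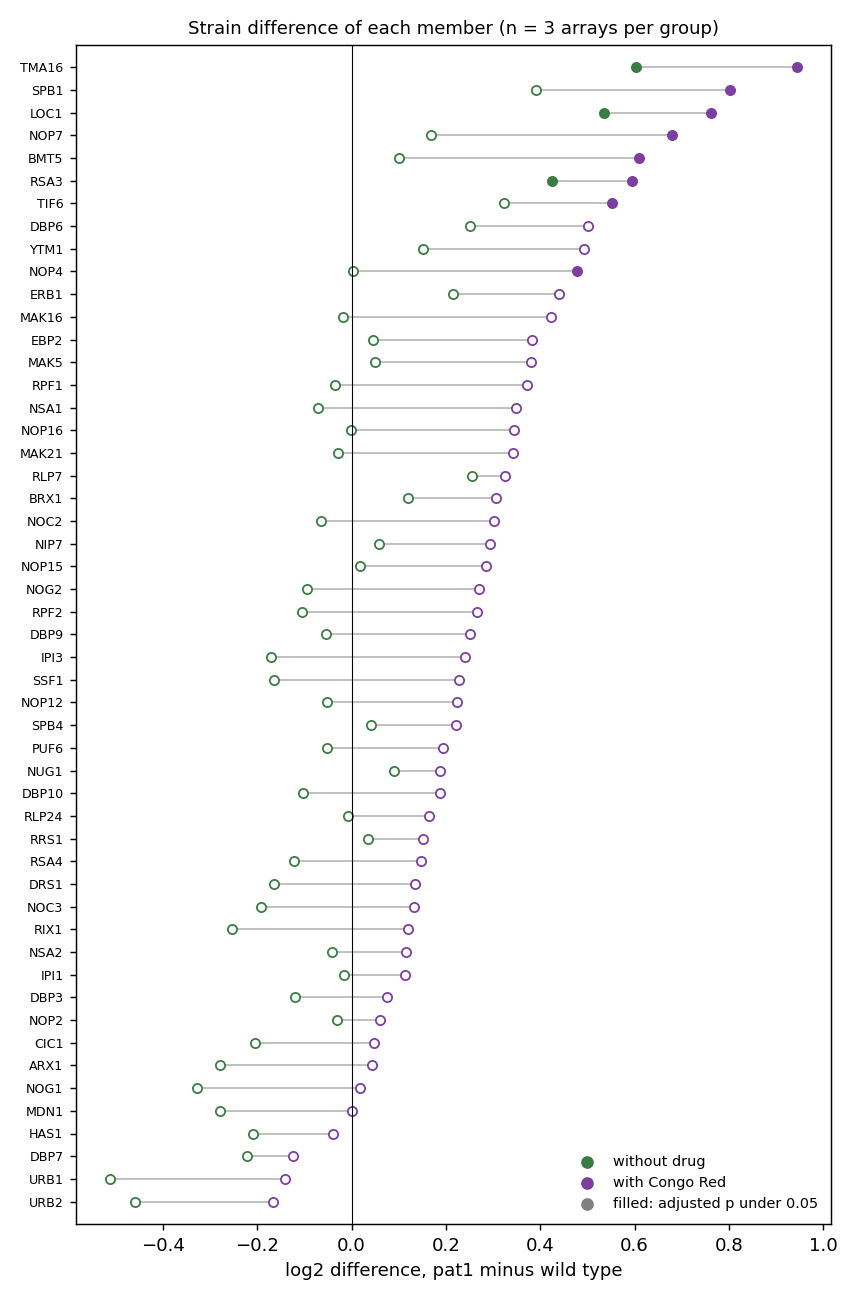
Log2 difference between pat1 and wild type for each of the 51 genes, without drug (green) and with Congo Red (purple), where filled circles passed limma's test at an adjusted p under 0.05. The 3 filled green circles are TMA16, LOC1 and RSA3, and every purple circle lies to the right of its green one because all 51 differences in response were positive.

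The 51 genes moved together across arrays within groups. After group means were taken off, the correlation of a gene with the mean of the other 50 over the 12 arrays had a median of 0.77 and was highest for ARX1 (0.973), and it was over 0.7 for 35 genes. It was lowest for URB1 (0.094), TMA16 (0.122) and LOC1 (0.33), which include 2 of the genes higher in pat1 without drug. The points share arrays and their scaling, so these values describe the arrays and carry no test. They were not computed for other genes. The mean levels of 39 other large-subunit factors and 46 small-subunit processome genes shifted much alike. In wild-type sample 2 without drug, the 51 and these 2 lists lay -0.190, -0.176 and -0.239 from their group means. Their signs differed in pat1 sample 1 without drug (-0.029, 0.010 and -0.042). On the 4 arrays with the stress genes above their group mean, the 51 lay below theirs, by 0.190 and 0.182 for wild-type sample 2 and by 0.173 and 0.045 for pat1 sample 3. The 51 also lay below their group mean on 3 arrays where the stress genes did too, by 0.013 in wild type sample 3 with the drug, and in pat1 sample 1 by 0.029 without drug and 0.095 with it, the lowest of its group. The median standard deviation within groups was 0.217 for the 51 and 0.187 for all genes.

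Other genes of ribosome assembly were set beside the 51. A list of 39 other large-subunit factors had a median response of -0.351 in wild type, with 38 lower means and 21 falling in the paired fit and none in the unpaired one. SDA1 (-0.66) and CGR1 (-0.61), both for pre-60S factors, were among its largest. In pat1 the list had a median of -0.06 and no call, and with the drug 4 of its genes were higher in pat1 than in wild type, among them CGR1 (0.86) and RRP15 (0.79). A list of 46 genes of the small-subunit processome had a median of -0.396 in wild type, all 46 lower, with 27 falling in the paired fit and 1, KRR1 (-0.55), in the unpaired one, and in pat1 a median of -0.072 with no call. The 75 measured genes for large-subunit ribosomal proteins had a median of -0.064 in wild type. Of these, 71 had lower means, 45 were lower in all 3 samples, and 1, RPL26B (-0.34), fell in the paired fit. These genes are bright, with a median signal of 13.405 in wild-type sample 1 without drug, where the highest value of any probe set was 14.32. RMA can shrink differences of very bright probe sets, and whether it did so here was not tested. In pat1 these genes had a median of -0.042, with 54 lower means.

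Of 8 genes for regulators of ribosome synthesis, IFH1, a coactivator of ribosomal protein genes, fell in wild type in the paired fit by 0.26 (limma adjusted p 0.0418). It was lower in pat1 without drug by 0.66 on the log2 scale (difference -0.66, limma adjusted p 0.00424), as was SCH9, for a kinase that promotes ribosome synthesis (-0.57, limma adjusted p 0.0497). Of the 8 regulators, 4 had lower and 4 higher means in pat1 without drug. CRF1 had the highest difference (0.80), which did not pass (limma adjusted p 0.0734). The median response of the 8 to the drug was -0.091 in wild type and 0.09 in pat1. For scale, the targets of the cell wall integrity pathway, 12 genes, had a median response of 1.975 in wild type, where 12 passed as higher in both fits, and of 1.123 in pat1, where 6 passed in the unpaired fit and 11 in the paired one.

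**Figure D5:**
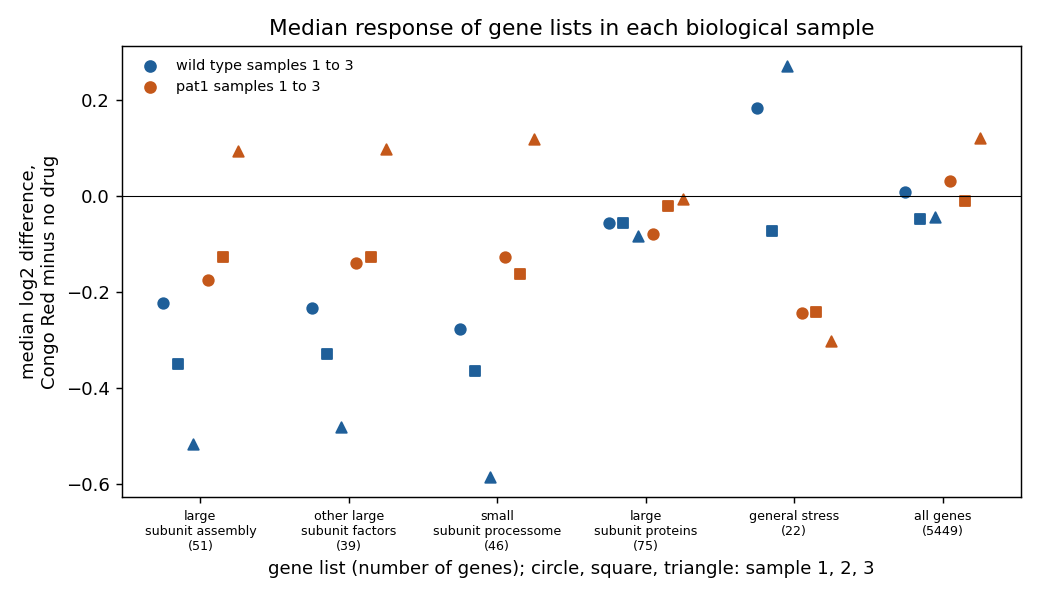
Median log2 difference, Congo Red minus no drug, of 5 gene lists and of all 5449 genes in each biological sample (circle, square and triangle for samples 1, 2 and 3). The large-subunit assembly, other large-subunit and small-subunit lists lie below 0 in all 3 wild-type samples. In pat1 sample 3 each of these lists lies above 0, as does the median of all genes (0.12).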

How the data were processed

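The deposited table holds log2 values of 5739 probe sets on 12 arrays, made with RMA, per the submitters' processing notes. No version of RMA is given there. RMA subtracts background, equalises the distributions of the arrays and summarises each probe set, and it can shrink differences of dim and very bright probe sets. The log2 values were used as deposited by the authors. Signals of single probes were not analysed here. Of the probe sets, 23 are controls and 218 have no listed gene. The other 5498 have 1 gene symbol from the platform annotation, 12 of them updated through the RefSeq gene table, and gave 5449 genes. Where a gene had several probe sets (47 genes), its brightest one stood for it. No filter on dim probe sets was applied. MDN1 is named REA1 in RefSeq. Array medians over genes were 9.53 to 9.70, and no 2 arrays were identical.

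Group means were fitted over all 12 arrays with limma 3.58.1 (lmFit and eBayes) in R 4.3.3, and p-values were adjusted by the Benjamini-Hochberg method over all 5449 genes, with calls at an adjusted p under 0.05. The unpaired fit has 8 residual degrees of freedom. Per the series' design text, both arrays of a number came from 1 biological sample of the strain, so a second fit had the sample as a block, with 4 residual degrees of freedom. The deviations of same-numbered arrays with and without drug correlated at 0.616 or more, and those of other numbers at 0.231 or less. Tables and figures were made with Python 3.11.15, pandas 2.3.3, numpy 2.4.6 and matplotlib 3.10.9. The fits were tested on simulated data. Values on every array are given, per comparison, for at most 6 called genes with the largest differences (or, with under 3 calls, the 3 largest differences) and for the gene with the smallest. URB2 was described in full after its values were seen. The 51 genes and the other lists were chosen with earlier results of these data known. Alternatives were other scalings, filters, blocks, thresholds and left-out arrays. A search of promoters for motifs was not made here.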

Additional observations from a re-analysis of the deposited data

Results flagged for a closer look

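The response of TIF6, whose protein holds the 60S subunit apart from the 40S subunit, went opposite ways in the strains. TIF6 was lower with Congo Red in every wild-type sample, by -0.09, -0.25 and -0.17, and higher in every pat1 sample, by 0.02, 0.02 and 0.13. The difference in response was 0.23. That pattern of signs is not itself a test, and limma's test of the difference did not pass (adjusted p of 0.417 paired). Relative to each sample's median response over all genes, the pat1 values were -0.01, 0.03 and 0.01, so the sign turned in sample 1. The wild-type values were then -0.10, -0.20 and -0.13.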

How the results depend on the processing

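All medians of the 51 genes moved by less than 1 SD of the sample values under every setting run. With 1 array left out, they ran from -0.476 to -0.262 for the drug in wild type, -0.168 to 0.017 in pat1, -0.145 to 0.044 for the strains without drug, 0.136 to 0.355 with it, and 0.207 to 0.395 for the difference in response. Counts of calls moved more. For the drug in wild type, the 3 unpaired calls became 30 with the replicate block and 32 with the sample as a random block. Of all 5449 genes, 321 and 368 fell in those fits, respectively. The count was 35 with the replicate block on arrays centred on their medians. The unpaired count was 0 when only the compared groups were fitted, or at an adjusted p under 0.01. It was also 0 without the URA3 arrays, or without both arrays of wild-type sample 2 and of pat1 sample 3. The replicate block gave 18, 6 and 0 without wild-type samples 1, 2 and 3, 17 without wild-type sample 2 and pat1 sample 3, and 19 without the samples of the URA3 arrays; these settings were chosen after seeing the data. Leaving out 1 array gave 0 to 2 calls. For the strains without drug, the 3 calls became 0 with only the compared groups, at 0.01, without the URA3 arrays and without wild-type sample 2 and pat1 sample 3, and 0 to 3 with 1 array left out. With the drug, the 8 calls became 2 at 0.01, 3 without the URA3 arrays, 2 without wild-type sample 2 and pat1 sample 3, and 4 to 8 with 1 array left out. A replicate block by number across strains, whose same-numbered arrays correlated at -0.547 to 0.264, gave 4 calls without drug, of which 1 (URB1) was lower in pat1, and 7 with the drug. Of all 5449 genes, that block called 185 higher and 164 lower in pat1 without drug, and 241 higher and 127 lower with it. For the drug in pat1 and the difference in response there were 0 calls in every setting. Calls of named genes were kept in 215 of 340 gene and setting pairs, lost in 125 and reversed in 0. Apart from fewer arrays in the fits that leave some out, the cause was not tested. For the other scalings, filters, thresholds and left-out arrays, calls among all 5449 genes were not counted. The number of arrays limits all of these.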

Other observations

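In the gene order of the RefSeq yeast annotation, some of the 51 genes lie next to other ribosome assembly genes. NSA2, RIX1 and RSA3 are each 1 gene apart from a gene of the small-subunit processome (LCP5, UTP9 and UTP13). SPB4 and LOC1 are 2 genes apart, and DRS1 and SOF1 are 3 apart. SPB4 differed by -0.25 and LOC1 by -0.22 with Congo Red in wild type, and without drug the strain difference was 0.04 for SPB4 and 0.53 for LOC1.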
